A study of Mus musculus with 13 samples.

Results

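The genes described here are 10 genes that erythroid cells use at their surface, in their membrane skeleton, or in carbon dioxide and heme handling, namely Epor, Tfrc, Car1, Car2, Ank1, Add2, Rhd, Aqp1, Ermap, and Blvrb. They were taken by name from the 54838 genes of the count table, and all 10 were among the 17795 genes tested. RNA had been sequenced from 50000 sorted Lin- cKit+ bone marrow (BM) cells per mouse, the fraction without mature lineage markers that holds hematopoietic stem and progenitor cells (HSPCs). Every mouse carried Mx1-Cre, a recombinase gene switched on by interferon. Control mice (n = 3) carried Mx1-Cre alone, p53mut mice (n = 3) also carried p53 R172H/+, NrasG12D mice (n = 3) carried Nras G12D/+ (written G21D in their genotype label), and NPmut mice (n = 4) carried both mutant alleles. Control and single-mutant mice, called age-matched in their titles, had been given 3 injections of 100 μg pI-pC from about 6 weeks of age. This synthetic RNA induces interferon. NPmut mice had been given none, and how their alleles were recombined was not tested; they were moribund when sampled. Differences between NPmut mice and the other groups therefore cannot be told apart from the effects of the injections and of the stage of disease.

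Red cell production starts in progenitors that depend on the receptor of erythropoietin (EPO), a kidney hormone that keeps erythroid cells alive and dividing. As these cells mature under the transcription factors GATA1, KLF1, and TAL1, they take up iron for heme, make carbonic anhydrase for carbon dioxide transport, and assemble a membrane skeleton that lets the red cell deform. In the Lin- cKit+ fraction, only the early steps of this program are present, since cKit is lost and Ter119, a marker used to deplete mature cells, is gained as the cells mature.

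Libraries held 12576174 to 29124022 counts, and each of the 10 genes had at least 42 counts in every library. NPmut mouse 2 had the most counts and stood apart from the other NPmut libraries, with a chi-square per degree of freedom of 88.0 to 104 against each of them and of 12.1 to 32.9 for every other pair within a group. The NPmut against control results are therefore also given without it. The mutated genes themselves served no check of the labels, since knock-in alleles keep their transcripts. Nras had 60.2 ± 2.59 CPM in control and 54.6 ± 3.88 CPM in NPmut mice (SD), and Trp53 had 114 ± 7.60 CPM in control and 94.2 ± 11.8 CPM in NPmut mice. CPM are counts scaled to library sizes that TMM factors had adjusted. Y-linked genes marked control mouse 1, p53mut mouse 1, NrasG12D mouse 2, and NPmut mice 3 and 4 as male. Late erythroid genes were near the floor of these libraries, as in a fraction depleted of mature cells: Hbb-bs, the adult β-globin, had 1.30 to 1.78 CPM in control and 0.193 to 1.07 CPM in NPmut mice, and Alas2, the erythroid enzyme that starts heme synthesis, had 0.977 to 1.11 and 0.455 to 1.78 CPM. Kit, the gene of the sorting marker, had 505 to 568 CPM in control and 288 to 449.9 CPM in NPmut mice, a log2 fold change of -0.54 ± 0.15 (SE; edgeR adjusted p = 0.0322).

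Promoters are shown for 3 of the 9 members in which the NPmut mice kept the same order at the low end. These are Epor, Rhd, and Ermap, and Tfrc is shown as the member in which they did not. RefSeq promoters of GRCm38.p6, from 250 bases before to 50 bases after each start, were found for 7 of the 10 members in 9 windows. Capitals mark matches on either strand to a GATA word, which was AGATAA or its variant TGATAA, or else AGATAG or its variant TGATAG, the kind of site bound by GATA1 and GATA2, or to CCNCNCCC, a CACCC-like word of the kind bound by KLF1, and the matches to CCNCNCCC may overlap each other. Epor lies at chr9:21963527-21963826 on the minus strand, Rhd at chr4:134864286-134864585 on the plus strand, Ermap at chr4:119189946-119190245 on the minus strand, and the first Tfrc window at chr16:32608646-32608945 on the plus strand.
Epor: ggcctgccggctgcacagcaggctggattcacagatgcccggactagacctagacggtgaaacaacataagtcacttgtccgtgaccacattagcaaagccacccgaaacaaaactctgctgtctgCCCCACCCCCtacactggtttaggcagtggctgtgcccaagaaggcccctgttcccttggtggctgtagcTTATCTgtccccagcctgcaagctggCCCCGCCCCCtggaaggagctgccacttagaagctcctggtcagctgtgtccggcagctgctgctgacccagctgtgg
Rhd: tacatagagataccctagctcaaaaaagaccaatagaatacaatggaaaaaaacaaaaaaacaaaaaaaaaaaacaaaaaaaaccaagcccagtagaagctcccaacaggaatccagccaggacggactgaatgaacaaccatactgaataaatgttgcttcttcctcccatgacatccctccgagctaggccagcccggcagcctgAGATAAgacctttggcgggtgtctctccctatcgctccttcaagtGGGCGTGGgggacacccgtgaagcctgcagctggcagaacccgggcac
Ermap: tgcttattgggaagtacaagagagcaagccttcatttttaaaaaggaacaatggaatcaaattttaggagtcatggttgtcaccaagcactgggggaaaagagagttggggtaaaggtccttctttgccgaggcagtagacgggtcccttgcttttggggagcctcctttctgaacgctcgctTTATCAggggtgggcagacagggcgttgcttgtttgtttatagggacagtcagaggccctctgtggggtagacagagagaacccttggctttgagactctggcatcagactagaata
Tfrc: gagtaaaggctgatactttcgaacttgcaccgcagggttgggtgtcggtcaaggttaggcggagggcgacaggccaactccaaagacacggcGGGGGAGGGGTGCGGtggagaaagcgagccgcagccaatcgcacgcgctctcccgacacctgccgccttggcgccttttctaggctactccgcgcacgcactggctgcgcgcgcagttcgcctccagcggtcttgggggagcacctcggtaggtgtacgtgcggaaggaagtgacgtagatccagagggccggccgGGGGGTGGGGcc
A GATA word starts 54 bases before the start of Epor, 43 before that of Rhd, and 67 before that of Ermap, whereas neither Tfrc window holds one. The members shown for keeping the order thus all hold a GATA word, but Aqp1 kept the order without one. The first Blvrb window holds none either. Whether GATA words go with the order was not tested. Of the 7 members, 5 had a GATA word (Add2 and the second Blvrb window besides these) and 6 had CCNCNCCC. Counted by window, 5 of 9 had a GATA word and 7 of 9 had CCNCNCCC. Over all 32544 promoters of the same length, 29.6% held a GATA word and 49.7% held CCNCNCCC. A match is a run of letters and was not tested as a binding site. Promoters of Car1, Car2, and Ank1 are not shown.

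To determine which members differed in NPmut HSPCs, NPmut and control mice were compared. Car2, a cytosolic carbonic anhydrase abundant in early erythroid cells, was the 1 member called, at 0.39 of its control level (169.6 ± 94.6 CPM in NPmut against 435 ± 71.1 CPM in control mice), and called means an edgeR adjusted p under 0.05 with a change of at least 2-fold. The other 9 were not called: 8 had log2 fold changes between -1.47 and -0.97, and Tfrc had -0.02. Of all genes tested, 6.01% were called in this comparison, 656 lower and 413 higher, and 3.69% were called lower. All 10 estimates were negative, with a median of -1.24 against 0.01 over all genes, and 9 of 10 had an unadjusted p under 0.05, as had 25.6% of all genes. In bulk RNA, fewer erythroid cells in the sorted fraction and less RNA per cell cannot be told apart.

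The receptors behaved differently from each other. Epor, the EPO receptor, had 16.0, 20.6, and 22.1 CPM in control mice 1 to 3 and 4.90, 1.62, 10.03, and 12.4 CPM in NPmut mice 1 to 4. Every NPmut mouse was thus below every control mouse, as was also the case for 11.5% of all genes. The log2 fold change was -1.47 ± 0.46 (SE), the lowest estimate among the members, and missed the threshold (edgeR adjusted p = 0.0598; 95% interval, -2.46 to -0.47). Without NPmut mouse 2, the lowest value, it was smaller but less variable and passed (-1.12 ± 0.28, edgeR adjusted p = 0.0201). Tfrc, the transferrin receptor through which iron enters the cell, had 173, 230.2, and 273 CPM in control mice and 241, 209.8, 194, and 247 CPM in NPmut mice. The NPmut values lay within the control range, and the interval of the log2 fold change, -0.31 to 0.28, leaves room for less than a 2-fold change in either direction. In both single mutants, Epor and Tfrc were not called, with 16.1 to 26.7 CPM and 183 to 210.0 CPM in p53mut and 13.7 to 15.5 CPM and 178 to 203 CPM in NrasG12D mice. The 3 NrasG12D values of Epor lay below those of control mice, as for 10.2% of all genes, at a log2 fold change of -0.41 ± 0.49.

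The carbonic anhydrases, which convert carbon dioxide to bicarbonate and back, had the highest levels per length among the 10 genes. In control mice Car1 had 208 ± 38.6 RPKM and Car2 had 186 ± 31.6 RPKM, so that their order was within the spread, followed by Aqp1 at 66.3 ± 13.3 RPKM. Car2 had 353, 477.7, and 475 CPM in control mice and 119, 64.9, 273, and 221 CPM in NPmut mice, with no overlap. Its log2 fold change was -1.36 ± 0.38 (edgeR adjusted p = 0.0386; 95% interval, -2.18 to -0.54). Car1 had 198, 284, and 270.0 CPM in control mice and 78.7, 37.1, 186, and 159.6 CPM in NPmut mice. Again the groups did not overlap, and the log2 fold change of -1.12 ± 0.42 was not called (edgeR adjusted p = 0.118). Over the 13 libraries the profiles of Car1 and Car2 were closer to each other than those of any other pair of members, at a root-mean-square distance of 0.12 on the mean-centered log2 CPM scale, where Car2 itself varied by 0.84. After Car1, the profiles nearest to Car2 were those of Adcy6, an adenylyl cyclase, at 0.17 and Nfia, a transcription factor of erythroid lineage choice, at 0.18.

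**Figure D1:**
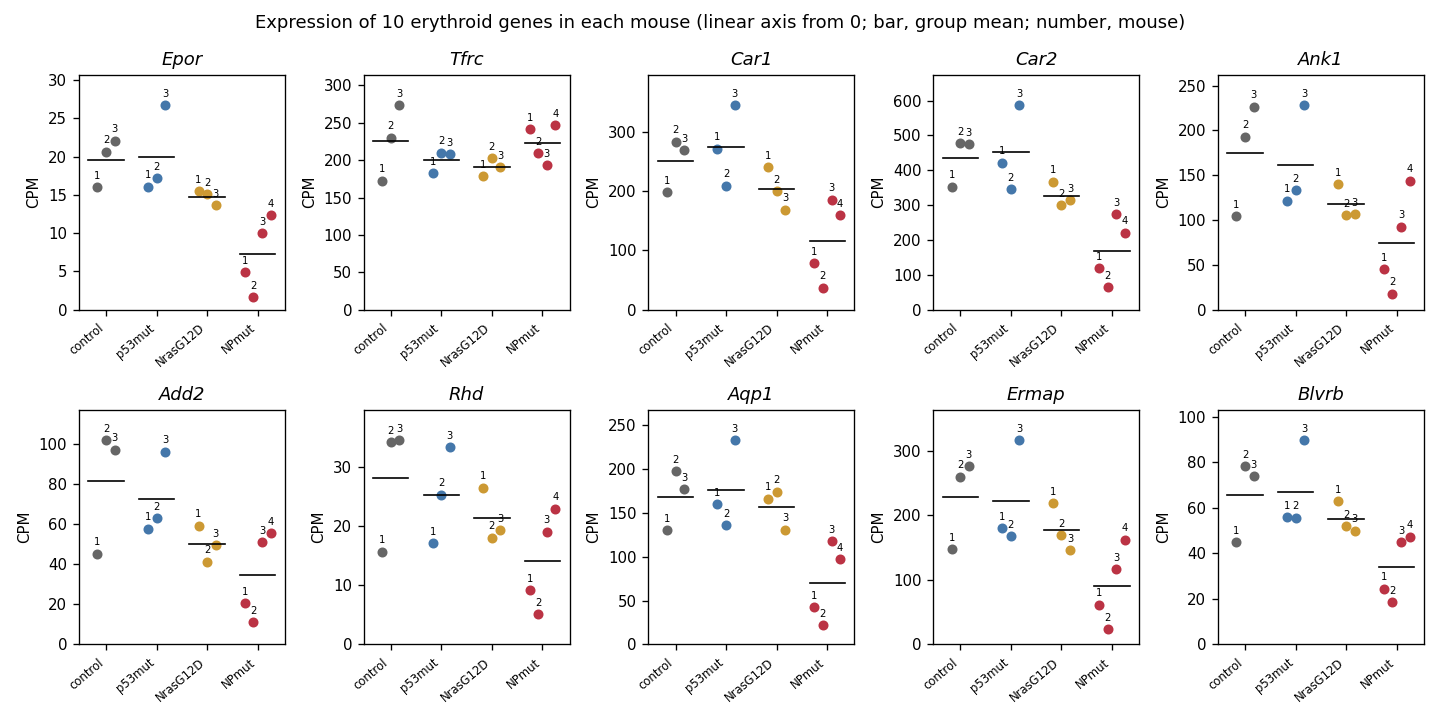
CPM of each of the 10 genes (vertical axis, linear from 0) in each mouse (points, numbered by mouse) of the 4 groups, with the group mean as a bar. NPmut mice 1 and 2 are the lowest of all 13 mice in every panel but that of Tfrc, and NPmut mice 3 and 4 are closer to the other groups.

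Genes of the membrane skeleton and the surface were not called. Ank1, the ankyrin that ties the skeleton to the membrane, had 104, 193, and 226 CPM in control mice and 45.1, 18.0, 92.4, and 144 CPM in NPmut mice. Add2, the β subunit of adducin, which caps actin at the skeleton's junctions, had 45.3, 102, and 97.3 CPM in control mice and 20.7, 11.03, 51.2, and 55.6 CPM in NPmut mice. In both genes control mouse 1 was within the range of NPmut mice. The log2 fold changes were -1.23 ± 0.55 for Ank1 and -1.25 ± 0.48 for Add2, with edgeR adjusted p-values of 0.186 and 0.130. Ank1 and Add2 share 862 and 356 exonic bases with antisense genes, which had at most 11 and 14 counts in any library.

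Of the surface proteins, Rhd, which encodes the mouse Rh blood group protein, had 15.7, 34.2, and 34.6 CPM in control mice and 9.15, 5.17, 19.1, and 23.0 CPM in NPmut mice. Aqp1, the water channel of the red cell, had 130.1, 197, and 177 CPM in control mice and 42.1, 21.9, 118, and 97.5 CPM in NPmut mice. Aqp1 was the fourth member, after Epor, Car1, and Car2, in which the groups did not overlap, whereas for Rhd they did. Ermap, an immunoglobulin-family protein of the erythroid membrane that carries the Scianna blood group in humans, had 148, 260.0, and 276 CPM in control mice and 61.8, 23.8, 117, and 162 CPM in NPmut mice. Its NPmut mouse 4 was above control mouse 1. Log2 fold changes were -1.02 ± 0.44 for Rhd, -1.27 ± 0.45 for Aqp1, and -1.33 ± 0.51 for Ermap, with edgeR adjusted p-values of 0.172, 0.1003, and 0.126. Blvrb, a reductase that acts on biliverdin and flavins, had 44.9, 78.4, and 73.9 CPM in control mice and 24.6, 18.6, 44.8, and 47.3 CPM in NPmut mice. The log2 fold change of Blvrb, -0.97 ± 0.31, was the smallest of the 9, with the smallest SE, and was not called (edgeR adjusted p = 0.0626).

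**Figure D2:**
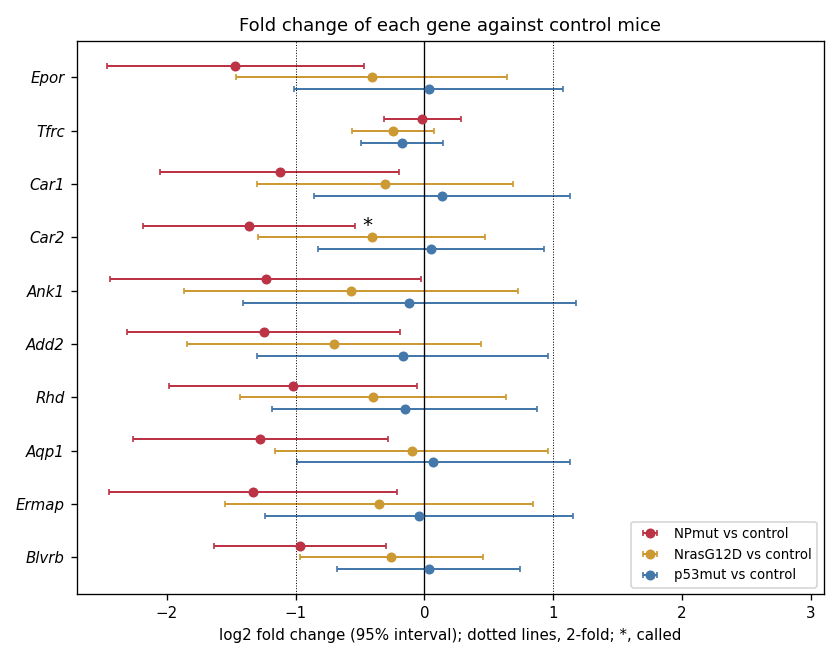
Log2 fold change (horizontal axis) of each gene in NPmut, NrasG12D, and p53mut mice against control mice, with 95% intervals from the edgeR fit; dotted lines mark 2-fold changes and the star marks the call. The NPmut intervals of 9 genes lie below 0, that of Tfrc spans it, and every single-mutant interval spans 0.

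The 4 NPmut mice formed an ordered picture across the members. NPmut mouse 2 was the lowest and mouse 1 the second lowest of the NPmut mice in 9 members, all but Tfrc, an order that 10.8% of all genes had. In the same 9 members both mice were below every other mouse of the 4 groups, as in 5.01% of all genes. NPmut mice 3 and 4 were both below every control mouse in 4 members (Epor, Car1, Car2, and Aqp1), as in 18.3% of all genes. Across the 10 members, the median distance to the mean of control mice, in log2 CPM, was -1.84 in mouse 1, -2.76 in mouse 2, -0.54 in mouse 3, and -0.45 in mouse 4, whereas the median over all genes was between -0.01 and 0.01 in each. The highest NPmut value was 2.55 to 8.005 times the lowest in the 9 members and 1.27 times in Tfrc. NPmut mice 1 and 2 were female and mice 3 and 4 were male, whereas in control mice the male was the lowest in all 10 members, as in 31.3% of all genes. In a fit with a term for sex, which was added after seeing the data, Car2 was again the 1 member called, and the members' median was -1.35.

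**Figure D3:**
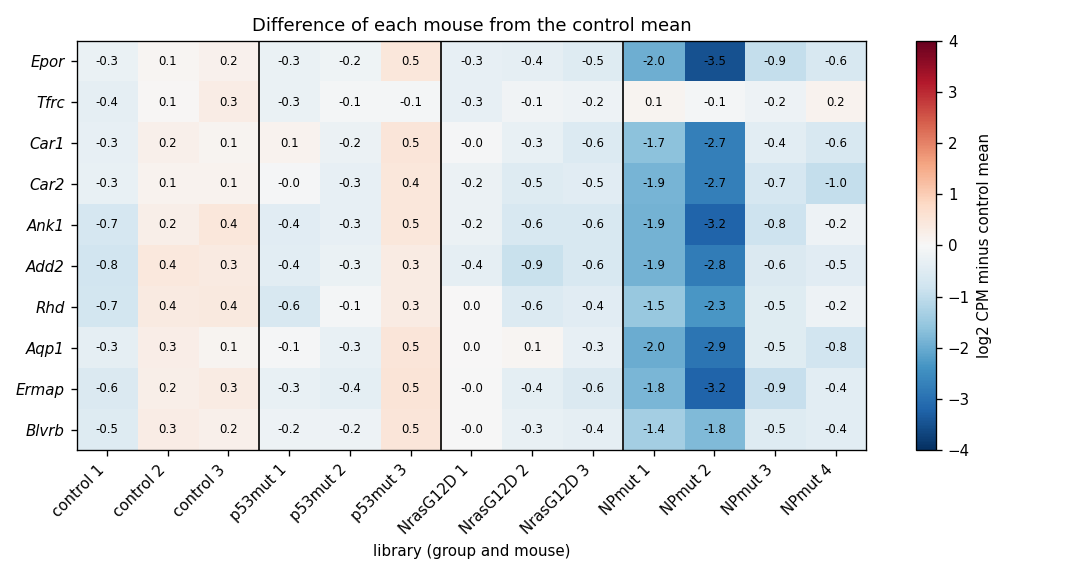
Difference of each mouse (columns, separated by group) from the mean of control mice for each gene (rows), in log2 CPM, with values printed in the cells. NPmut mice 1 and 2 lie at -3.49 to -1.37 in 9 genes and near 0 in Tfrc.

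The number of members called moved with single libraries. It was 5 without NPmut mouse 3 (Epor, Car1, Car2, Aqp1, and Blvrb), 3 without mouse 4, and 2 without mouse 2 (Epor and Car2), and was 0 without NPmut mouse 1, control mouse 2 or 3, p53mut mouse 1, or any 1 of the NrasG12D mice. All genes called moved too, to 1252 of 17561 without NPmut mouse 3, 1093 of 17673 without mouse 4, and 888 of 17585 without mouse 2. In the settings with 0 members called they numbered 586 to 1047. Without NPmut mouse 2, the members' median was -0.93, Car2 had -1.09 ± 0.29 (edgeR adjusted p = 0.0448), and Ermap had -1.01 ± 0.41. The other members but Epor and Tfrc were then under 2-fold, from -0.98 in Aqp1 to -0.74 in Rhd, with -0.83 in Car1, -0.91 in Ank1, -0.95 in Add2, and -0.77 in Blvrb. Against NrasG12D and p53mut mice the members' medians without that mouse were -0.52 and -0.88, with 0 and 2 members called. Of 17585 genes tested, 647 and 850 were called in these comparisons. Car2 had an edgeR or DESeq2 adjusted p between 0.00814 and 0.248 over 22 alternatives and was called in 11 of them, and DESeq2 also called 1 member. The estimates themselves were negative in all of these alternatives for the 9 members other than Tfrc, between -2.11 and -0.74.

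To examine the single mutants, p53mut and NrasG12D mice were each compared with control mice. No member was called in p53mut mice by edgeR or DESeq2, and none had an unadjusted p under 0.05, as 2.33% of all genes had, and edgeR called 0 genes in all (percent called, 0). With the replicate number as a block in the control and p53mut libraries alone, 25 genes and 0 members were called. The estimates fell on both sides of 0, from -0.17 in Tfrc to 0.14 in Car1. The p53mut mice still differed among themselves, since mouse 3 was the highest of them in 9 members, as in 36% of all genes, with 586 CPM of Car2 against 421 and 346 CPM, and 316 CPM of Ermap against 180.2 and 168 CPM. In NrasG12D mice no member was called by either tool and none had an unadjusted p under 0.05, against 9.23% of all genes, and 0.00562% of all genes were called, which was 1 gene and became 27 without NPmut mouse 2. All 10 estimates were negative, with a median of -0.38 and the lowest in Add2 (-0.70 ± 0.52). Leaving out control mouse 3 moved the median to -0.23, leaving out control mouse 2 moved it to -0.25, and it was -0.59 with background reads as a covariate. For 9 members the mean of NrasG12D mice lay between those of NPmut and control mice, as for 18.7% of all genes. Car2 had 368, 299.7, and 315 CPM in NrasG12D mice 1 to 3, and mouse 1 alone was above the lowest control mouse.

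NPmut mice were also compared with the single mutants, and the additive expectation was tested as an interaction (NPmut minus p53mut minus NrasG12D plus control on the log2 scale). These comparisons share the NPmut or control libraries with the one above. Against p53mut mice Car2 was called (-1.41 ± 0.38, edgeR adjusted p = 0.0346), as were 5.24% of all genes, and the members' median was -1.19. An unadjusted p under 0.05 was found for 7 members and 24% of all genes, and 7 members, all but Tfrc, Ank1, and Rhd, had no overlap, as had 10.5% of all genes. Epor and Blvrb followed at -1.50 and -0.999, both with an edgeR adjusted p of 0.0593. Against NrasG12D mice no member was called by edgeR or DESeq2, although 4 had an unadjusted p under 0.05, as had 24.1% of all genes, and 4.41% of all genes were called. These 4 (Epor, Car2, Aqp1, and Blvrb) were also the members with every NPmut mouse below every NrasG12D mouse, as for 11.2% of all genes. The lowest estimates were -1.17 ± 0.45 in Aqp1 and -1.06 ± 0.46 in Epor, and Tfrc was the 1 member with a positive estimate (0.22 ± 0.14). The interaction was called for 0 members by either tool, with 0 at an unadjusted p under 0.05 against 16.1% of all genes and 1.34% called, or 239 genes, which with single mice left out ranged from 61 without control mouse 2 to 531 without NPmut mouse 3. Its estimates ran from -1.24 ± 0.66 in Aqp1 to 0.39 ± 0.20 in Tfrc, so that an additive and a more than additive effect could not be told apart for these genes.

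Several regulators of the erythroid program were lower in NPmut mice. Of 18 erythroid transcription factors, 7 were called lower and none higher (Gata1, Gata2, Klf1, Tal1, Zfpm1, Gfi1b, and Sox6), against 3.69% of all genes called lower. The list median was -0.84. Gata1, which drives erythroid and megakaryocyte genes, had 41.9, 56.1, and 57.7 CPM in control mice and 11.1, 4.36, 24.6, and 20.2 CPM in NPmut mice. Klf1, the activator of globin and membrane skeleton genes, had 64.4, 95.2, and 93.0 CPM in control mice and 18.7, 8.29, 31.0, and 50.1 CPM in NPmut mice. For both, NPmut mouse 2 was the lowest and mouse 1 the second lowest, the order seen in the 9 members and in 10.8% of all genes. Log2 fold changes were -1.80 ± 0.43 for Gata1 and -1.66 ± 0.44 for Klf1 (edgeR adjusted p = 0.0194 and 0.0341), and -1.26 ± 0.24 for Tal1, a partner of GATA1 (edgeR adjusted p = 0.00511). Gata2, which acts before Gata1 in progenitors, had 123 to 171 CPM in control, 219 to 244 CPM in NrasG12D, and 21.8 to 86.7 CPM in NPmut mice. It did not keep the order of the 9 members, since NPmut mouse 4, at 31.9 CPM, was below mouse 1, at 50.5 CPM. Gata2 was called lower in NPmut mice (-1.64 ± 0.36, edgeR adjusted p = 0.0142). By edgeR, 2 genes of the erythroid lists had a called interaction, Gata2 and Cbfa2t3, a corepressor bound to the TAL1 complex (-2.55 ± 0.54 and -1.38 ± 0.25, edgeR adjusted p = 0.0387 and 0.0180). Both are among the 18 transcription factors, and 1.34% of all genes had a called interaction. DESeq2, which called the interaction for 602 genes in all, called both and also Tal1 (-1.41), the iron gene Tfr2 (-1.51), and the heme gene Alas1 (1.11). In NrasG12D mice Gata2 was not called (edgeR adjusted p = 0.679), although the 3 values were above all control values, as for 10.9% of all genes.

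Calls in the other erythroid lists are to be read against the 6.01% of all genes called and the 3.69% called lower. Of 28 tested genes of the membrane skeleton and blood groups, 5 were called lower and none higher, namely Tmod1, a cap of actin filaments (-2.98 ± 0.64, at 1.265 CPM in control mice), Ank3, a relative of Ank1 (-2.21 ± 0.55), the water and glycerol channel Aqp9 (-1.73 ± 0.39), Icam4, a blood group adhesion protein (-1.47 ± 0.30), and the urea transporter Slc14a1 (-1.33 ± 0.24). Sptb, which encodes the β-spectrin that Ank1 binds, had -0.58 ± 0.59 and was not called. In the iron list, Tfr2, a second transferrin receptor, was called lower at -1.68 ± 0.34, as was the iron exporter Slc40a1 at -1.25 ± 0.35, 2 of 17 genes tested with a list median of -0.05. Tfr2 thus fell where Tfrc had an estimate near 0. In EPO signaling, 2 of 17 genes were called lower, Podxl, a surface mucin that EPO raises (-2.96 ± 0.56, at 2.81 CPM in control mice), and the feedback inhibitor Cish (-1.36 ± 0.38), and 1 was called higher, Il3ra, the interleukin-3 receptor α chain (1.04 ± 0.18). Of the kinase and the transcription factors that carry the signal of the EPO receptor, Jak2 had -0.15 ± 0.11 and Stat5b -0.09 ± 0.10, and Stat5a had -0.47 ± 0.13 (edgeR adjusted p = 0.0277), under 2-fold. Of 17 heme genes, 1 was called, Cpox (-1.02 ± 0.24), an enzyme of porphyrin synthesis, a share near that of all genes. Without NPmut mouse 2 the 7 transcription factors, the 5 membrane genes, Tfr2, and Podxl were called again, and Cpox, Slc40a1, Cish, and Il3ra were not. No gene of these lists was called by edgeR in p53mut or NrasG12D mice, where DESeq2 called 0 and 1 of them, and the numbers at an unadjusted p under 0.05 for the transcription factor, heme, membrane, iron, and EPO lists in NrasG12D mice were 3 of 18, 3 of 17, 6 of 28, 0 of 17, and 6 of 17, against 9.23% of all genes.

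**Figure D4:**
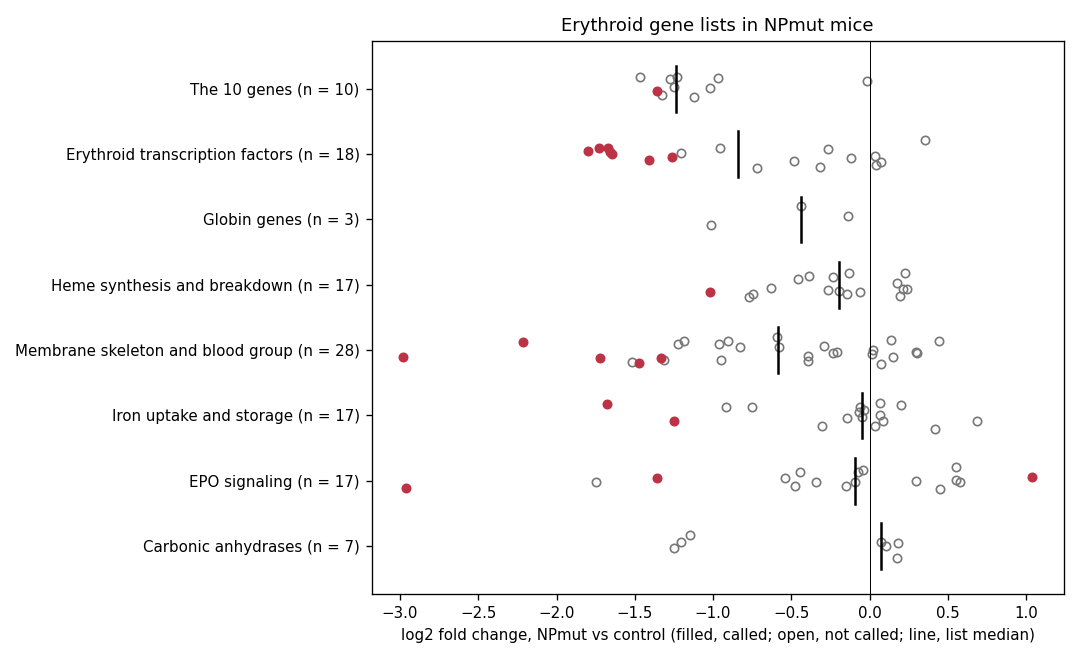
Log2 fold change in NPmut against control mice (horizontal axis) of each tested gene of the 10 members and of 7 erythroid lists, with called genes filled and list medians as black lines. The members' median lies at -1.24, and 7 transcription factors and 5 membrane genes are called lower.

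Markers of other cell types moved in the same libraries. Of all genes tested, 2.32% were called higher and 3.69% lower in NPmut against control mice. Of 5 monocyte and macrophage markers, 4 were called higher in NPmut mice (Csf1r, Ly86, Irf8, and Cx3cr1), and their summed level was 275 to 316 CPM in control and 688 to 1258 CPM in NPmut mice, the highest in mouse 2 and the second highest in mouse 1. Megakaryocyte markers, whose cells arise from the same progenitors as erythroid cells, were called lower for all 4 that were tested of 6 (Pf4, Itga2b, Gp9, and Vwf), with 113 to 175 CPM in control and 13.1 to 61.2 CPM in NPmut mice. Stem and multipotent progenitor markers were called lower for 6 of 8, among them Procr, Mecom, Hlf, Slamf1, and Meis1, and higher for 1 (Flt3), with summed levels of 437 to 641 and 357 to 659 CPM. Neutrophil and GMP markers came to 11769 to 14792 CPM in control and 13523 to 23015 CPM in NPmut mice, the highest in mouse 2, with none of 5 called by edgeR or DESeq2 and 1 at an unadjusted p under 0.05. Late erythroid markers came to 56.4 to 118 and 12.03 to 95.2 CPM, with none of 8 tested called by either tool and 2 at an unadjusted p under 0.05. Called lower besides these were the mast cell marker Fcer1a, 1 of 5, and the stromal and endothelial markers Col1a2 and Plvap, 2 of 3 tested. The summed level of the stromal and endothelial list went the other way, with 91.1 to 106 CPM in control and 126 to 158 CPM in NPmut mice. None of 4 B lymphoid and 2 T and NK markers was called by either tool, with 2 and 1 at an unadjusted p under 0.05. Without NPmut mouse 2, Cx3cr1 and Itga2b were no longer called, and the other markers named as called were. The part of these cell types in the members' values was not tested. Reads on olfactory and vomeronasal receptor genes, a measure of background, came to 151 ± 47.0 CPM in control and 36.6 ± 21.6 CPM in NPmut mice, and background of that density would account for at most 0.30% of the counts of any member in any group. That share was worked out for the members alone. It does not cover called list genes of low level such as Tmod1 and Ank3, the latter at 2.76 CPM in control mice.

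**Figure D5:**
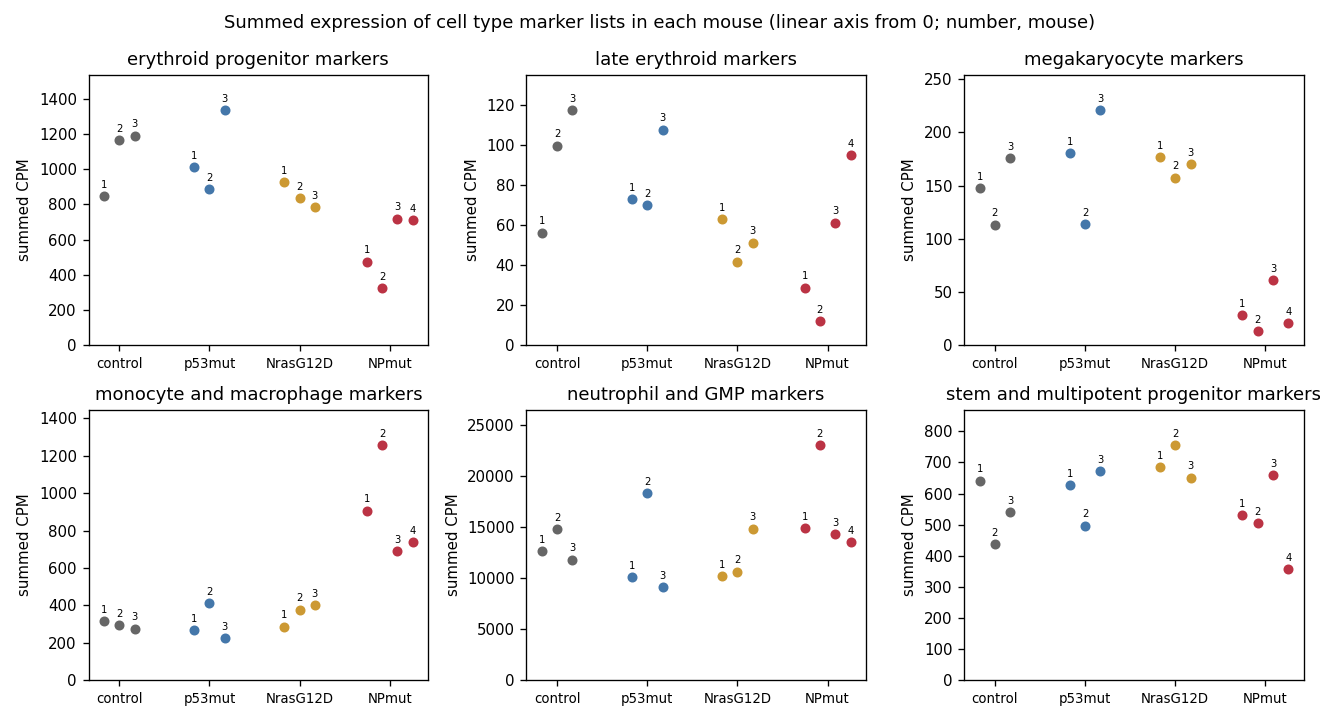
Summed CPM (vertical axis, linear from 0) of 6 cell type marker lists in each mouse (points, numbered by mouse) of the 4 groups; 4 of the 6 erythroid progenitor markers are among the 10 genes. NPmut mouse 2 has the lowest erythroid and the highest monocyte and neutrophil sums.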

How the data were processed

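RNA-Seq libraries of Lin- cKit+ BM cells were made with a SMARTer stranded kit for low input. The authors deposited raw read counts per gene for all 13 mice in 1 table under Ensembl identifiers. According to the submitters' processing notes, STAR 2.6.1d, the GRCm38.p6 build, R 3.6.1, and DESeq2 1.26.0 were used, whereas the counting program and its handling of strand are not given in the sources used here. Columns were assigned to mice by the code shared with the labels, and 0 columns were left without a sample. Gene names, lengths, and positions came from GENCODE M21, which holds 54809 of the 54838 identifiers; the other 29 hold 0.0032% of the counts, and 0 rows name no gene.

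Counts were tested with edgeR 4.0.16 in R 4.3.3, in a robust quasi-likelihood fit of all 13 libraries with a mean per group, TMM factors, and filterByExpr. Adjusted p-values are Benjamini-Hochberg values over 17795 genes. SE were derived from the F statistic. CPM used TMM-scaled library sizes, RPKM library totals and exonic length, and log2 CPM a prior count of 2. Alternatives were RLE factors, library totals, DESeq2 1.42.0, other filters, only the compared groups, a replicate block, background reads or sex as a covariate, and each library left out. Depth leaves counting error small for these genes, so that precision depends on the number of mice and on the spread among them. The labels name separate mice.

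Members and gene lists were chosen with earlier results of these data known. The genes named are the 10 members, listed genes called in NPmut against control mice, listed genes called in another comparison where 5 or fewer were, set regulators and late erythroid genes, Kit, the mutated genes, and the 3 profiles nearest to each called member. Sptb, Jak2, Stat5a, Stat5b, and the carbonic anhydrases named in the closing section fall outside that rule and were picked with their values in view. Deviations of same-numbered control and p53mut mice correlated at 0.152 to 0.166 in all 3 pairs, although no label ties the number to a litter or batch; other groups had pairs at or below 0.1. Ahsp was not analysed here, and results for some listed genes are not reported here.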

Additional observations from a re-analysis of the deposited data

How the results depend on the processing

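Members called in NPmut against control mice (1) numbered 0 with no filter on low counts, with only the groups compared, and with background reads as a covariate, 2 with at least 10 counts in every library, and 4 with the replicate block in all libraries (Epor, Car2, Ank1, and Blvrb), and 0 to 5 with single mice left out. Against p53mut mice (1) they numbered 0 with no filter, with only the groups compared, and with background reads as a covariate, 2 with sex as a covariate, 3 with at least 10 counts and with the replicate block, and 0 to 5 with single mice left out. Against NrasG12D mice (0) they numbered 1 with the replicate block (Epor) and 0 to 2 with single mice left out. The cause of these moves was not tested. Same-numbered mice of NPmut and another group correlated at -0.113 to 0.294, and not every mouse correlated best with its own number. NPmut mouse 2 did so in each other group, at 0.257 in control, 0.188 in p53mut, and 0.294 in NrasG12D mice. Whether the number marks a shared factor was not tested. The number was 0 under every alternative for both single mutants against control mice and for the interaction.

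Directions reversed for estimates near 0. Tfrc in NPmut against control mice was 0.0214 with no filter and 0.0159 with sex as a covariate, and -0.16 to 0.15 with single mice left out, and against p53mut mice it was -0.11 with background reads as a covariate. In p53mut against control mice Epor was -0.0115 and Car2 -0.0051 with the replicate block, and Epor was -0.14 and Blvrb -0.0483 with background reads as a covariate. With single mice left out of that comparison, Epor ran from -0.23 to 0.17, Car1 from -0.0502 to 0.30, Car2 from -0.17 to 0.21, Ank1 from -0.45 to 0.12, Add2 from -0.45 to 0.0176, Rhd from -0.43 to 0.0625, Aqp1 from -0.18 to 0.22, Ermap from -0.38 to 0.13, and Blvrb from -0.23 to 0.17. Aqp1 in NrasG12D against control mice ran from -0.23 to 0.0286.

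All genes called in NPmut against control mice (1069) numbered 572 with background reads as a covariate, 638 with at least 10 counts, 651 with only the groups compared, 1568 with no filter, and 586 to 1252 with single mice left out, the fewest without control mouse 3. With single mice left out, those against NrasG12D mice (785) numbered 444 to 991, against p53mut mice (933) 433 to 1152, by interaction (239) 61 to 531, and in NrasG12D against control mice (1) 0 to 27; with no filter the last 2 numbered 651 and 159. With library totals, the median of all genes moved to -0.11 and the split from 413 higher and 656 lower to 310 and 788. The replicate block changed no call of a member in the single mutants. With 3 or 4 mice a group, estimates of these members as low as -1.47 were not called.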

Other observations

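Beyond Car1 and Car2, 7 of 14 other carbonic anhydrase genes were tested in NPmut against control mice, and edgeR called 0 of them, with 1 at an unadjusted p under 0.05. DESeq2 called Car13 lower, and Car10, which edgeR did not test and which had 0.551 ± 0.387 CPM in control mice (SD, n = 3). Car13, a cytosolic relative of Car1 and Car2, had 6.18 ± 0.90 CPM in control (SD, n = 3) and 2.71 ± 1.72 CPM in NPmut mice (n = 4), a log2 fold change of -1.15 ± 0.39 (SE; edgeR adjusted p = 0.0738), and it was called by edgeR without NPmut mouse 2. Of the other 6, Car7 and Car15, both under 1 CPM, had -1.20 ± 0.58 and -1.25 ± 0.81, and Car3, Car5b, Car9, and Car12 had 0.17 ± 0.34, 0.18 ± 0.59, 0.07 ± 0.23, and 0.10 ± 0.27. Of 8 globin genes 3 were tested and 0 called by edgeR or DESeq2 in NPmut mice, with 1 at an unadjusted p under 0.05, and Hba-a1 had 1.75 ± 0.71 CPM in control and 1.36 ± 1.37 CPM in NPmut mice.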
